A study of Saccharomyces cerevisiae with 16 samples.

Results

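Amino acid synthesis in budding yeast (Saccharomyces cerevisiae) is followed here through 52 genes: 8 of lysine synthesis, 10 of branched-chain synthesis (isoleucine, valine and leucine), 6 of histidine, 11 of the aromatic amino acids, 4 of serine, 9 of the aspartate, asparagine and threonine family, 3 of proline, and GCN4. They were chosen by gene name, not by a cutoff on a measured value, but with earlier results of these data known. The same holds for the gene lists set beside them. All 52 were on the array, among 5315 genes with a name. Genes often used as strain markers (HIS3, LEU2, LYS2, TRP1, URA3 and MET15) were not among them. Newly made RNA was measured on 16 dual-colour arrays, in 2 strains at 4 times, with 2 independent cultures in each of the 8 groups. In Mot1-aa, the protein Mot1 carries an FRB domain with yEGFP and 3V5 tags, and rapamycin ties it to the ribosomal protein Rpl13A, which carries FKBP12, so that Mot1 leaves the nucleus. WT-aa is the parent, By4742-aa, with the anchor but without the tag on Mot1. Both strains carry his3-1, leu2, lys2 and ura3, the tor1-1 allele, RPL13A-FKBP12-NAT and MET15, are deleted for FPR1 and have mating type alpha. Cultures in synthetic complete (SC) medium, at 2% glucose, were kept with rapamycin at 7.5 µM over 0, 10, 20 or 30 min. They were given 5 mM 4-thiouracil, which marks new RNA, for the last 6 min. Each value sets a gene's labelled RNA against that gene's RNA in a common reference, a pool of WT-aa cultures at 0 min, as a log2 ratio. Ratios compare samples for 1 gene, not the levels of different genes, and in such bulk RNA fewer cells making a transcript and less of it per cell cannot be told apart.

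Mot1 is an ATPase that takes the TATA-binding protein off DNA, and it can lower or raise transcription depending on the promoter. Most of the 52 genes are known targets of Gcn4, the activator that raises amino acid synthesis when amino acids run short and whose amount is set mainly by translation of its messenger RNA. Single pathways have activators of their own that sense an intermediate: Lys14 for lysine, with alpha-aminoadipate semialdehyde, and Leu3 for leucine, with alpha-isopropylmalate. Several steps are made by a pair of related enzymes, which differ in their place in the cell or in their regulation.

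The values are changes against the other genes of the same array, because the normalization puts the typical gene at 0. The depletion effect at a time is how much more a gene's log2 ratio moved since 0 min in Mot1-aa than in WT-aa. Its median over all genes shifted with scaling on the external control spots, to 0.54 both at 10 and at 20 min and to 0.27 at 30 min. For the strain difference at 0 min the median then was -0.61, and for the Mot1-aa changes it was 0.41, 0.40 and 0.36 at 10, 20 and 30 min. All 52 genes were above background on all 16 arrays, by at least 3.86 times, and 0 were saturated. The median sample signal was 12.0 times the background on the Mot1-aa 0 min array of culture 1 and 22.2 to 32.2 times on the others. That array is part of the baseline of every Mot1-aa change. Of the mutated markers, LEU2 and URA3 had sample signals near the bottom of all genes, at the 0.681 to 2.69 and the 2.5 to 6.97 percentile. LYS2 and HIS3 lay higher, at the 10.6 to 17.7 and the 15.7 to 20.2 percentile, and the labels do not say which part of each gene is lost. FPR1 was not found under its name. The depletion acts on the Mot1 protein, so no transcript on the array checks it.

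**Figure D1:**
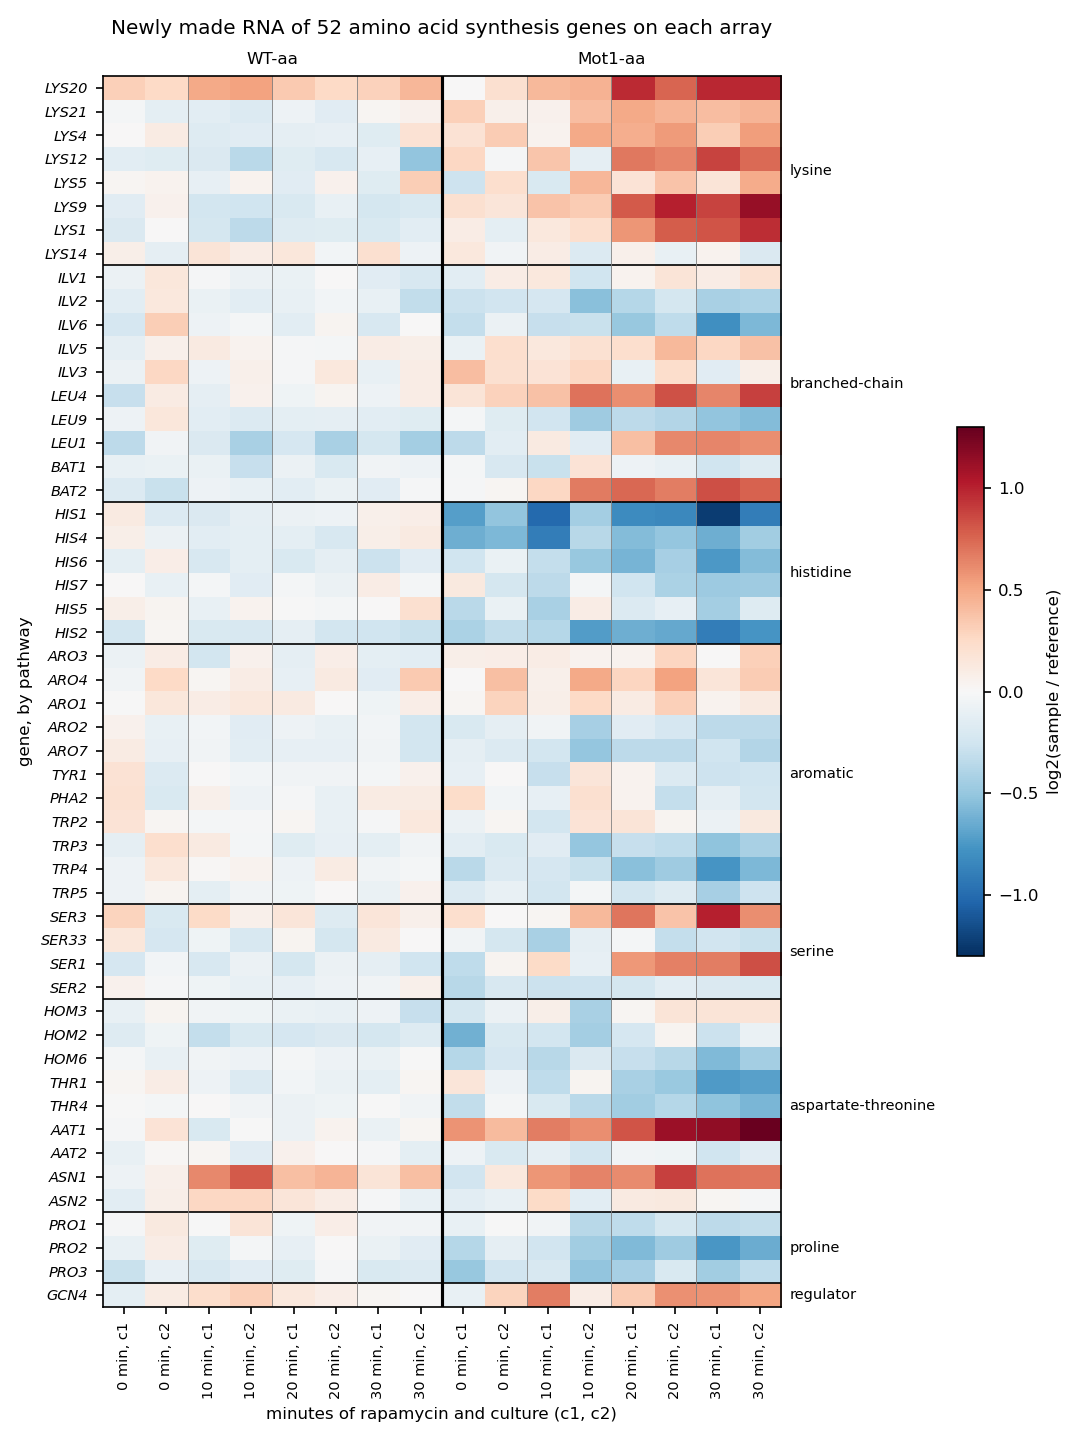
Log2(sample/reference) of each of the 52 genes (rows, by pathway) on each of the 16 arrays (columns, by strain, minutes of rapamycin and culture), with red above the reference and blue below it. In Mot1-aa, genes red in all columns at 20 and 30 min include LYS20, LYS12, LYS9, LYS1, LEU4, LEU1, BAT2, SER1, AAT1 and ASN1. Others, such as SER3, LYS21, LYS4 and GCN4, are above the reference there as well. In WT-aa the values above 0.45 are those of LYS20 and ASN1 at 10 min, from 0.49 to 0.79.

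Before rapamycin, few of the 52 genes differed between the strains. HIS4 (YCL030C), which encodes an enzyme for several steps of histidine synthesis, and SER2 (YGR208W), phosphoserine phosphatase, were lower in Mot1-aa. These are 2 of 52 genes past an adjusted p of 0.05, or 3.85%, against 2.69% of all 5315 genes in either direction and 0.847% lower. HIS4 read 0.08 and -0.08 in the WT-aa cultures and -0.64 and -0.59 in the Mot1-aa cultures. The groups did not overlap, and the difference was -0.61 (SE 0.13, adjusted p = 0.0379). SER2 read 0.05 and -0.01 in WT-aa and -0.36 and -0.20 in Mot1-aa, a difference of -0.30 (SE 0.07, adjusted p = 0.0472). All 6 histidine genes had a negative difference, with a median of -0.27 against -0.01 for all genes. HIS1 (YER055C), the first enzyme of the pathway, had a difference of -0.58 that was not past the threshold (adjusted p = 0.0923). On the other side, AAT1 had a difference of 0.42 and LEU4 one of 0.33, with adjusted p of 0.0643 and 0.0620. The call of HIS4 held without 3 of the 16 arrays in turn and that of SER2 without 2. Without the dim Mot1-aa 0 min array, 0 of the 52 genes were called, and the values were -0.63 for HIS4 and -0.24 for SER2. Without either Mot1-aa 10 min array, 7 were called, against 8% of all genes.

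In WT-aa, 1 of the 52 genes changed after rapamycin was added, and rapamycin and time cannot be told apart there. ASN1 (YPR145W), an asparagine synthetase, rose at 10 min. It read -0.06 and 0.06 at 0 min, 0.62 and 0.79 at 10 min, 0.39 and 0.44 at 20 min, and 0.17 and 0.39 at 30 min. The values at all 3 later times lay above both at 0 min and were highest at 10 min. The change at 10 min was 0.71 (SE 0.09, adjusted p = 0.00641), and 0.414% of all genes were called there, 0.376% upward. The changes of 0.42 at 20 min and 0.28 at 30 min were not past the threshold (adjusted p = 0.158 and 0.366). At those times 0 of the 52 genes were called by limma, against 0.113% and 0.395% of all genes, and 1 of the 52 had an unadjusted p under 0.05 at each. Its partner ASN2 (YGR124W) read -0.13 and 0.07 at 0 min and 0.27 in both cultures at 10 min, and was not called. ASN1 at 10 min lost its call without either WT-aa 0 min culture (0.73 and 0.69, adjusted p = 0.0636 and 0.0559) and without either WT-aa 10 min culture (0.71 and 0.70, adjusted p = 0.0817 and 0.133).

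In Mot1-aa, 2 of the 52 genes rose at 10 min, BAT2 (0.47, SE 0.11) and ASN1 (0.66, SE 0.09), against 3.46% of all genes called and 3.07% called upward. At 20 min 10 rose and 2 fell (23.1% of the 52, against 23.9% of all genes, 16.4% up and 7.47% down). At 30 min 12 rose and 12 fell (46.2%, against 41.9% of all genes, 22.9% up and 19% down). The shares called were near those of all genes at all 3 times. The genes that rose at 30 min were LYS20, LYS12, LYS9, LYS1, ILV5, LEU4, LEU1, BAT2, SER3, SER1, AAT1 and ASN1. Those that fell were ILV6, ILV3, LEU9, HIS1, HIS6, HIS7, HIS2, TRP4, TRP5, THR1, THR4 and PRO2. Lysine and serine genes were called only upward (4 of 8 and 2 of 4), and histidine, aromatic and proline genes only downward (4 of 6, 2 of 11 and 1 of 3). Branched-chain genes went both ways (4 up and 3 down), as did the aspartate and threonine family (2 up and 2 down). With scaling on external control spots, 11 of the 12 rises were called and none of the 12 falls. The values of ILV3, TRP4, TRP5 and THR4 then turned positive, so these falls are relative to the typical gene. Leaving out the Mot1-aa 10 min array of either culture raised the number called from 12 to 29 at 20 min (37.1% of all genes) and from 24 to 34 at 30 min (55.7% of all genes). At 20 min, 7 were called without the Mot1-aa 20 min array of culture 2. At 10 min, 12 were called without Mot1-aa 10 min of culture 1 (23.2% of all genes) and 7 without that of culture 2 (9.35%), and BAT2 kept its call in 3 of the 16 leave-outs (highest adjusted p = 0.264).

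The depletion effect was called for 0 of the 52 genes and 0% of all genes at 10 min, where limma gave an unadjusted p under 0.05 to 3 of the 52 and 225 of all genes. At 20 min it was called for 7, all higher (13.5%, against 8.09% of all genes, of which 7.06% were higher). They were LYS20, LYS9, LYS1, LEU1, BAT2, SER1 and AAT1. At 30 min it was called for 11 (21.2%, against 21.1% of all genes). LYS12, LEU4 and ASN1 joined the 7 among those that were higher (10 of 52, against 13.6% of all genes higher), and THR1 was lower (1 of 52, against 7.51%). The median over the 52 genes was -0.02 at 30 min, beside 0.01 for all genes, and the share called was near that of all genes. The depletion effects at 20 and 30 min share the 0 min arrays.

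**Figure D2:**
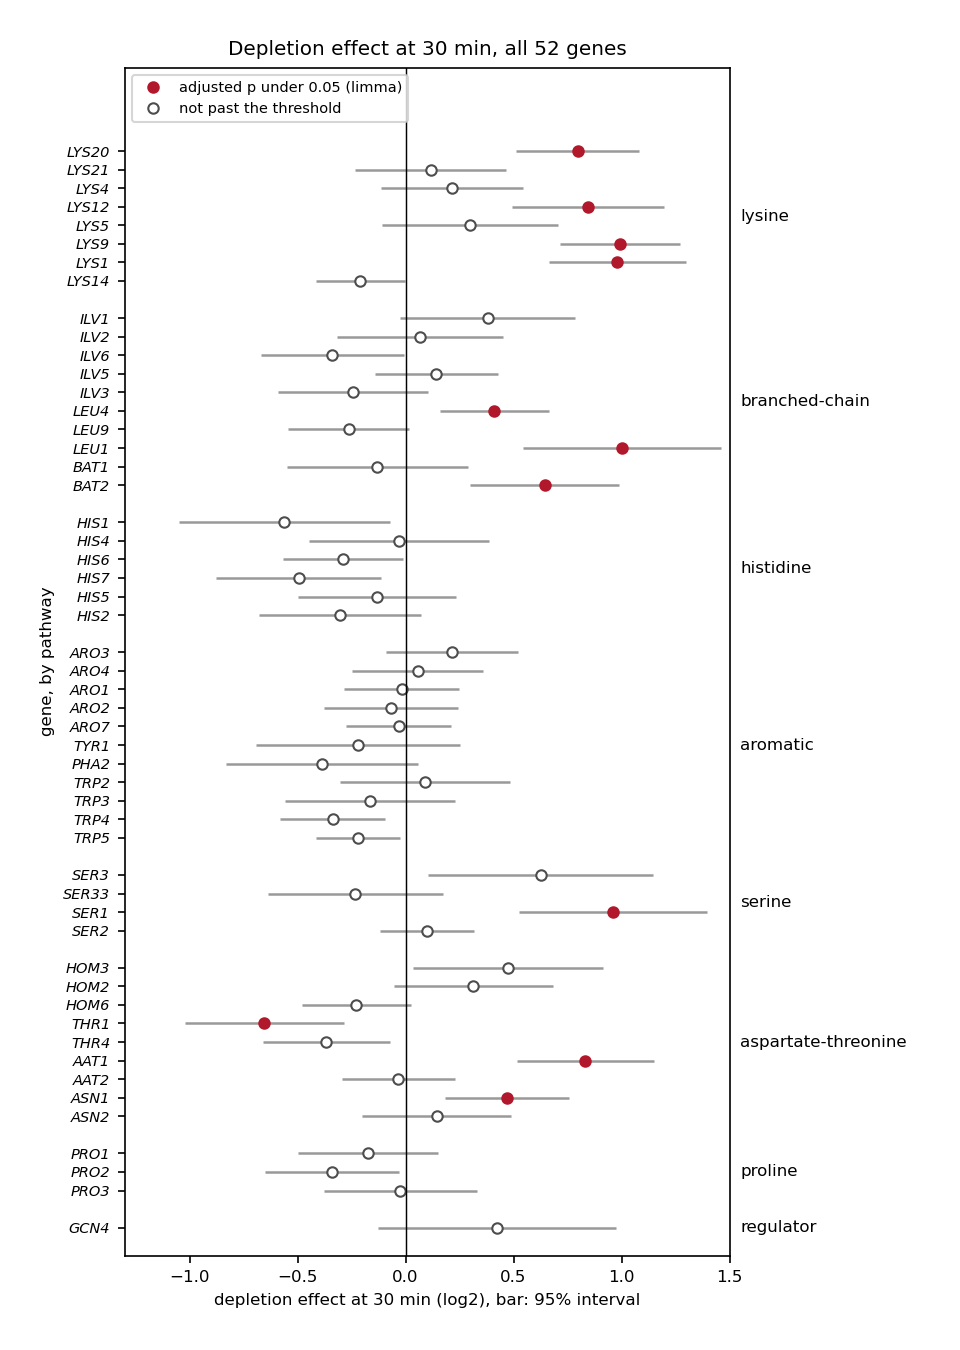
Depletion effect at 30 min on the log2 scale (horizontal axis) for each of the 52 genes by pathway (vertical axis), with bars for the 95% interval. Filled red points passed an adjusted p of 0.05: 10 lie to the right of 0 and THR1 lies to the left.

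The count depended on single arrays. The share of all genes called, 8.09% at 20 min and 21.1% at 30 min with all arrays, depended on them too. The depletion effects at 20 and 30 min do not use the 10 min arrays. Leaving those out changed the adjusted p and not the values. Without either Mot1-aa 10 min array, whose cultures disagreed, 23 of the 52 were called at 30 min (14 higher and 9 lower, against 37.8% of all genes) and 13 at 20 min. The 12 genes that gained a call at 30 min were ILV1, SER3, HOM3 and GCN4, which were higher, and HIS1, HIS6, HIS7, PHA2, TRP4, TRP5, THR4 and PRO2, which were lower. Without Mot1-aa 30 min of culture 1, 7 were called at 30 min, and without the dim Mot1-aa 0 min array 8. At 20 min, 1 was called without WT-aa 20 min of culture 2 and 2 without Mot1-aa 20 min of culture 2. The count at 20 min was 3 without WT-aa 0 min of culture 2, WT-aa 20 min of culture 1 or either Mot1-aa 30 min array, and 4 without either WT-aa 10 min array or the dim array. LYS20, LYS12, LYS9, LYS1, LEU1, SER1 and AAT1 were called at 30 min with each of the 16 arrays left out in turn. At 20 min only LYS9 was. With scaling on external control spots 0 of the 52 were called at either time, and 4 of 5315 genes at 30 min.

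Yeast makes lysine from 2-oxoglutarate through homocitrate and alpha-aminoadipate, with homoaconitase and homoisocitrate dehydrogenase in the mitochondria and the last steps in the cytosol. Of the 8 lysine genes, 4 were called higher for the depletion effect at 30 min, against 13.6% of all genes. The median of the 8 was 0.55. LYS9 (YNR050C), a saccharopine dehydrogenase of the next to last step, had the highest value. In WT-aa it read -0.15 and 0.05 at 0 min, -0.24 and -0.26 at 10 min, -0.20 and -0.10 at 20 min, and -0.23 and -0.20 at 30 min. The Mot1-aa values were 0.20 and 0.16 at 0 min, 0.37 and 0.33 at 10 min, 0.79 and 1.01 at 20 min, and 0.88 and 1.13 at 30 min. All 8 Mot1-aa values lay above all 8 WT-aa values, and those at 20 and 30 min above the rest of Mot1-aa. Its depletion effect reached 0.83 (SE 0.13, adjusted p = 0.00392) at 20 min and 0.99 (SE 0.13, adjusted p = 0.000552) at 30 min, a 1.99-fold difference.

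LYS1 (YIR034C), the saccharopine dehydrogenase that releases lysine, followed LYS9 closely. It read -0.18 and 0.00 at 0 min and -0.20 and -0.13 at 30 min in WT-aa, and 0.10 and -0.12 at 0 min, 0.14 and 0.21 at 10 min, 0.58 and 0.78 at 20 min, and 0.81 and 0.96 at 30 min in Mot1-aa. The strains overlapped at 0 min and were apart at 30 min. It had depletion effects of 0.77 (SE 0.14, adjusted p = 0.0106) at 20 min and 0.98 (SE 0.14, adjusted p = 0.00133) at 30 min. LYS12 (YIL094C), homoisocitrate dehydrogenase of the mitochondrial part, read -0.14 and -0.16 at 0 min and -0.11 and -0.51 at 30 min in WT-aa. On the Mot1-aa arrays it read 0.27 and -0.02 at 0 min, 0.36 and -0.12 at 10 min, 0.69 and 0.64 at 20 min, and 0.88 and 0.73 at 30 min. The Mot1-aa values at 20 and 30 min lay above all others, while the cultures at 10 min disagreed. It had depletion effects of 0.57 (adjusted p = 0.0546) at 20 min and 0.84 (SE 0.16, adjusted p = 0.00494) at 30 min.

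LYS20 (YDL182W) and LYS21 (YDL131W) both encode homocitrate synthase, the first enzyme. LYS20 was above the reference on every WT-aa array, with 0.31 and 0.26 at 0 min, 0.49 and 0.52 at 10 min, 0.34 and 0.26 at 20 min, and 0.30 and 0.43 at 30 min. Mot1-aa gave 0.00 and 0.20 at 0 min, 0.42 and 0.45 at 10 min, 0.97 and 0.76 at 20 min, and 0.98 in both cultures at 30 min. It began lower in Mot1-aa and ended above every WT-aa value, with depletion effects of 0.75 (SE 0.13, adjusted p = 0.00718) at 20 min and 0.80 (SE 0.13, adjusted p = 0.00229) at 30 min. LYS21 read 0.31 and 0.07 at 0 min and 0.40 and 0.44 at 30 min in Mot1-aa, and its depletion effect at 30 min was 0.12 (95% interval -0.23 to 0.46).

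LYS4 (YDR234W), homoaconitase, had a depletion effect of 0.21 (95% interval -0.12 to 0.54) at 30 min, and LYS5 (YGL154C), which activates the Lys2 enzyme, one of 0.30 (95% interval -0.11 to 0.71). Neither was called. LYS14 (YDR034C), the pathway's activator, was the only lysine gene with a negative value, -0.21 (adjusted p = 0.134). Its RNA read 0.05 and -0.19 in Mot1-aa at 30 min and 0.21 and -0.06 in WT-aa at 30 min. Of 6 textbook Lys14 targets, all lysine genes listed above, 4 were called higher at 30 min, against 13.6% of all genes, with a median of 0.82 against 0.01 for all genes. At 20 min, the call of LYS20 was lost without WT-aa 20 min of culture 2 (adjusted p = 0.0536), and that of LYS1 without that array or without Mot1-aa 20 min of culture 2 (highest adjusted p = 0.064).

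**Figure D3:**
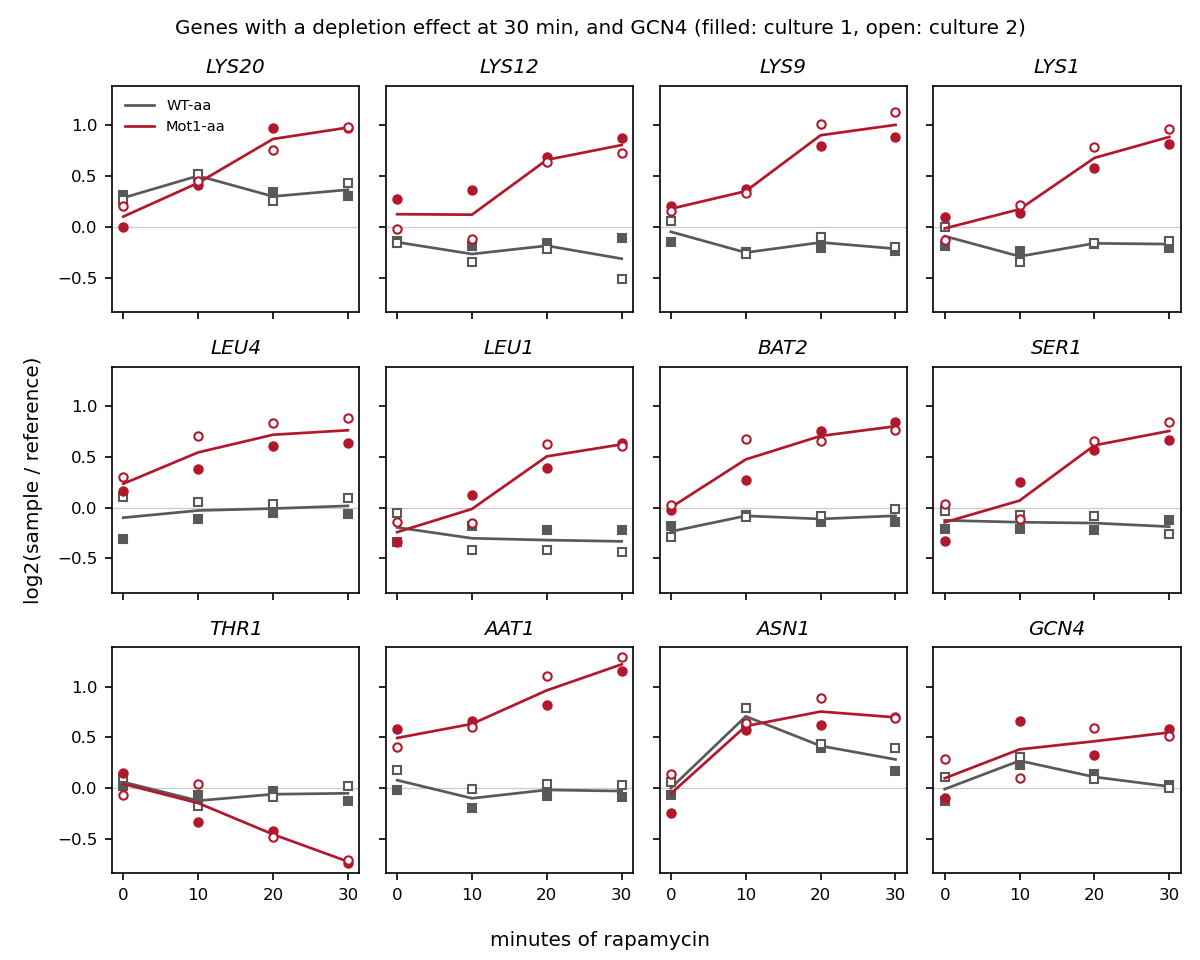
Log2(sample/reference) against minutes of rapamycin for the 11 genes with a depletion effect at 30 min and for GCN4, in WT-aa (grey squares) and Mot1-aa (red circles), with filled points for culture 1, open points for culture 2 and lines through the mean. At 30 min LYS9, LEU1 and AAT1 read 0.61 to 1.29 in Mot1-aa and -0.44 to 0.03 in WT-aa, THR1 goes down to -0.74 and -0.71, and ASN1 reads above 0.5 in both strains at 10 min.

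Of the 10 branched-chain genes, 3 had a called depletion effect at 30 min, against 21.1% of all genes. Isoleucine and valine share a chain of mitochondrial enzymes, and leucine leaves it through a branch of its own, begun by isopropylmalate synthase. The 3 were LEU1, LEU4 and BAT2. Limma called none of the 5 ILV genes, of which 1, ILV6, had an unadjusted p under 0.05. LEU1 (YGL009C), the isopropylmalate isomerase of the second leucine step, read -0.34 and -0.05 at 0 min, -0.18 and -0.42 at 10 min, -0.22 and -0.42 at 20 min, and -0.22 and -0.44 at 30 min in WT-aa. The Mot1-aa values were -0.34 and -0.14 at 0 min, 0.12 and -0.15 at 10 min, 0.39 and 0.62 at 20 min, and 0.64 and 0.61 at 30 min. The strains overlapped at 0 min, and from 20 min all Mot1-aa values lay above all WT-aa values. This gave a depletion effect of 0.87 (SE 0.21, adjusted p = 0.0296) at 20 min and 1.00 (SE 0.21, adjusted p = 0.00739) at 30 min, a 2.00-fold difference, the largest of the 52. At 20 min its call was lost without WT-aa 0 min of culture 2, either WT-aa 20 min array, Mot1-aa 0 min of culture 1, Mot1-aa 20 min of culture 2 or either Mot1-aa 30 min array (highest adjusted p = 0.149).

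LEU4 (YNL104C), the main isopropylmalate synthase, read -0.30 and 0.11 at 0 min and -0.07 and 0.10 at 30 min in WT-aa, and 0.17 and 0.30 at 0 min and 0.64 and 0.88 at 30 min in Mot1-aa. It lay higher in Mot1-aa from the start. At 30 min LEU4 had a depletion effect of 0.41 (SE 0.11, adjusted p = 0.029). That call was lost without any 1 of the 4 arrays at 30 min, without either Mot1-aa array at 0 min and without culture 2 of WT-aa at 0 min (0.30 to 0.46, highest adjusted p = 0.115). LEU9 (YOR108W), its paralogue, read -0.02 and -0.16 at 0 min and -0.52 and -0.57 at 30 min in Mot1-aa. LEU9 fell in Mot1-aa (-0.45, adjusted p = 0.00246), but its depletion effect of -0.26 was not called (adjusted p = 0.163). Without WT-aa 0 min of culture 2 it was (-0.41, adjusted p = 0.0417).

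BAT2 (YJR148W), the cytosolic branched-chain aminotransferase, read -0.18 and -0.29 at 0 min and -0.14 and -0.02 at 30 min in WT-aa. In Mot1-aa it read -0.02 and 0.02 at 0 min, 0.27 and 0.68 at 10 min, 0.75 and 0.66 at 20 min, and 0.84 and 0.76 at 30 min. All Mot1-aa values from 10 min on lay above all WT-aa values. BAT2 had a depletion effect of 0.58 (SE 0.16, adjusted p = 0.0463) at 20 min and 0.64 (SE 0.16, adjusted p = 0.0159) at 30 min. At 30 min the call was lost without WT-aa 30 min, Mot1-aa 0 min or Mot1-aa 30 min of culture 1 (0.60, 0.64 and 0.58, highest adjusted p = 0.075), and at 20 min it held in 2 of the 16 leave-outs (highest adjusted p = 0.167). BAT1 (YHR208W), the mitochondrial enzyme, had a value of -0.13 (95% interval -0.55 to 0.29) at 30 min.

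Among the shared steps, ILV1 (YER086W), threonine deaminase, had a depletion effect of 0.38 (95% interval -0.03 to 0.79) at 30 min. ILV2 (YMR108W), the catalytic subunit of acetolactate synthase, had 0.07 (95% interval -0.32 to 0.45), and ILV6 (YCL009C), its regulatory subunit, -0.34 (95% interval -0.67 to -0.01), the lowest of the pathway. ILV6 became a call without WT-aa 0 min of culture 2 (-0.53, adjusted p = 0.0186). ILV5 (YLR355C), the reductoisomerase, had 0.14, and ILV3 (YJR016C), the dehydratase, -0.25, a value that was called without Mot1-aa 0 min of culture 2 (-0.45, adjusted p = 0.0353). ILV6 fell in Mot1-aa at 30 min (-0.49, adjusted p = 0.00379). ILV3 also fell there (-0.34), a call lost without Mot1-aa 0 min of culture 1 (-0.14, adjusted p = 0.325) or either Mot1-aa 30 min array. ILV5 rose by 0.26 there, and that call held without 7 of the 16 arrays in turn. Without the dim array ILV5 stood at 0.14 (adjusted p = 0.342). Of 7 textbook Leu3 targets, 4 were called higher for the depletion effect at 30 min, against 13.6% of all genes: LEU1, LEU4, OAC1, a mitochondrial oxaloacetate carrier (0.67, adjusted p = 0.034), and GDH1, a glutamate dehydrogenase (0.56, adjusted p = 0.0222). GDH1 had risen in both strains at 10 min, by 0.94 in WT-aa and by 0.91 in Mot1-aa. Its change from 0 min to 30 min was 0.36 in WT-aa and 0.92 in Mot1-aa. ILV2, ILV5 and BAT1 are the other members of the Leu3 list, whose median was 0.41. The RNA of LEU3 itself had a value of 0.13 (adjusted p = 0.427).

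Serine synthesis from 3-phosphoglycerate has 3 steps, served by 4 genes. SER1 (YOR184W), the phosphoserine aminotransferase, read -0.21 and -0.04 at 0 min, -0.21 and -0.08 at 10 min, -0.22 and -0.08 at 20 min, and -0.12 and -0.26 at 30 min in WT-aa. Mot1-aa gave -0.33 and 0.04 at 0 min, 0.25 and -0.11 at 10 min, 0.57 and 0.66 at 20 min, and 0.67 and 0.84 at 30 min. The Mot1-aa values at 20 and 30 min lay above all others. SER1 had a depletion effect of 0.78 (SE 0.20, adjusted p = 0.0364) at 20 min, a call that held in 5 of the 16 leave-outs (highest adjusted p = 0.164), and 0.96 (SE 0.20, adjusted p = 0.00718) at 30 min.

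SER3 (YER081W) and SER33 (YIL074C) encode the phosphoglycerate dehydrogenase of the first step. SER3 is known for control by transcription through its promoter from an upstream noncoding RNA, SRG1. SER3 read 0.22 and 0.00 at 0 min, 0.70 and 0.37 at 20 min and 1.02 and 0.60 at 30 min in Mot1-aa, against 0.29 and -0.20 at 0 min and 0.16 and 0.07 at 30 min in WT-aa. It rose in Mot1-aa at 30 min (0.70, adjusted p = 0.00688), a call lost without Mot1-aa 30 min of culture 1 (0.58, adjusted p = 0.0774). Its depletion effect of 0.63 was not past the threshold (SE 0.24, adjusted p = 0.0831), and without either Mot1-aa 10 min array its adjusted p was 0.00317. SER33 had a depletion effect of -0.23 (95% interval -0.64 to 0.17), and SER2 one of 0.10 (95% interval -0.12 to 0.32).

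In the aspartate family, oxaloacetate is turned into aspartate, which feeds asparagine on one side and homoserine and threonine on the other. AAT1 (YKL106W), the mitochondrial aspartate aminotransferase, read -0.02 and 0.18 at 0 min, -0.19 and -0.01 at 10 min, -0.08 and 0.04 at 20 min, and -0.08 and 0.03 at 30 min in WT-aa. Mot1-aa gave 0.58 and 0.41 at 0 min, 0.67 and 0.60 at 10 min, 0.82 and 1.11 at 20 min, and 1.15 and 1.29 at 30 min. Every Mot1-aa array lay above every WT-aa array, the 0 min arrays included. The further separation gave depletion effects of 0.56 (SE 0.14, adjusted p = 0.0382) at 20 min and 0.83 (SE 0.14, adjusted p = 0.00313) at 30 min. The 20 min call held in 4 of the 16 leave-outs (highest adjusted p = 0.181). AAT2 (YLR027C), the cytosolic enzyme, had a value of -0.03 (95% interval -0.30 to 0.23) at 30 min.

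ASN1 rose in both strains at 10 min, and the strains parted later. In Mot1-aa it read -0.25 and 0.14 at 0 min, 0.58 and 0.65 at 10 min, 0.62 and 0.89 at 20 min, and 0.70 and 0.69 at 30 min. The Mot1-aa values at 30 min lay above those of WT-aa at 30 min and within the range of WT-aa at 10 min. The depletion effect was -0.04 at 10 min, 0.39 at 20 min (adjusted p = 0.103) and 0.47 at 30 min (SE 0.13, adjusted p = 0.0285). The 30 min call was lost without any 1 of the 4 WT-aa arrays at 0 and 30 min, and without Mot1-aa 0 min or 30 min of culture 1 (0.34 to 0.50, highest adjusted p = 0.127). ASN2 had 0.14 (95% interval -0.20 to 0.49).

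THR1 (YHR025W), homoserine kinase, was the only gene of the 52 called lower for the depletion effect. It read 0.02 and 0.10 at 0 min and -0.12 and 0.02 at 30 min in WT-aa. In Mot1-aa it read 0.15 and -0.07 at 0 min, -0.33 and 0.04 at 10 min, -0.42 and -0.49 at 20 min, and -0.74 and -0.71 at 30 min. The Mot1-aa values at 20 and 30 min lay below all others. Its depletion effects were -0.38 (adjusted p = 0.232) at 20 min and -0.65 (SE 0.17, adjusted p = 0.0199) at 30 min. The call was lost without WT-aa 30 min of culture 2, Mot1-aa 0 min of culture 1 or either Mot1-aa 30 min culture (-0.66 to -0.51, highest adjusted p = 0.0914). THR4 (YCR053W), threonine synthase of the next step, fell in Mot1-aa at 30 min (-0.38, adjusted p = 0.00817), a call lost without the second culture of Mot1-aa at 0 min (-0.22, adjusted p = 0.0768) or 30 min, and its depletion effect was -0.37 (adjusted p = 0.0742). Without the dim array that effect was called (-0.53, adjusted p = 0.0161). The 3 HOM genes upstream of THR1 were not called. HOM3 (YER052C), aspartate kinase, had 0.47 (95% interval 0.03 to 0.91, adjusted p = 0.116), HOM2 (YDR158W) 0.31, and HOM6 (YJR139C) -0.23.

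Limma called none of the 6 histidine genes for the depletion effect at 30 min, against 21.1% of all genes. Of the 6, 3 had an unadjusted p under 0.05. All 6 values were negative, with a median of -0.30 against 0.01 for all genes. At 20 min the histidine median was -0.19, and it turned to 0.42 with scaling on external control spots. HIS1 had the lowest value at 30 min, -0.56 (SE 0.22, adjusted p = 0.0968), which became a call without either Mot1-aa 10 min array (adjusted p = 0.018) and without WT-aa 0 min of culture 1 (-0.79, adjusted p = 0.028). It read 0.11 and -0.18 at 0 min and 0.06 and 0.09 at 30 min in WT-aa, and -0.72 and -0.52 at 0 min, -1.01 and -0.44 at 10 min, -0.82 and -0.84 at 20 min, and -1.23 and -0.90 at 30 min in Mot1-aa. Every Mot1-aa array lay below every WT-aa array, and part of the gap was present before rapamycin. HIS4, lower at 0 min, read -0.64 and -0.45 in Mot1-aa at 30 min, and its depletion effect was -0.03 (95% interval -0.45 to 0.39).

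HIS7 (YBR248C), imidazole glycerol phosphate synthase, had a depletion effect of -0.49 (adjusted p = 0.0657), called without Mot1-aa 0 min of culture 2 (-0.66, adjusted p = 0.0311). Among the others, HIS6 (YIL020C), an isomerase, had a depletion effect of -0.29, HIS2 (YFR025C), a phosphatase, one of -0.30, and HIS5 (YIL116W), an aminotransferase, one of -0.13. In Mot1-aa at 30 min HIS1 (-0.45), HIS6 (-0.48), HIS7 (-0.41) and HIS2 (-0.47) fell, with the lowest adjusted p, 0.00151, for HIS6. Of these, HIS6 was called with each array left out. HIS1 was called in 4 of the 16 leave-outs (highest adjusted p = 0.262), HIS7 not without Mot1-aa 0 min of culture 1 (-0.25, adjusted p = 0.203) or either Mot1-aa 30 min culture, and HIS2 not without Mot1-aa 0 min of culture 2 or 30 min of culture 1 (highest 0.0971). BAS1, which encodes an activator of histidine and purine genes, had a depletion effect of -0.44 (adjusted p = 0.0163).

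The 11 aromatic genes had 0 calls by limma for the depletion effect at 20 and 30 min, against 8.09% and 21.1% of all genes. At these times 1 and 2 of the 11 had an unadjusted p under 0.05. Their median at 30 min was -0.07, or 0.28 with scaling on external control spots. The pathway runs from DAHP synthase to chorismate and then parts into tryptophan on one branch and phenylalanine and tyrosine on the other. In the shared part, ARO3 (YDR035W), the DAHP synthase inhibited by phenylalanine, had the highest value, 0.21 (95% interval -0.09 to 0.52). ARO4 (YBR249C), the one inhibited by tyrosine, had 0.06. ARO1 (YDR127W) and ARO2 (YGL148W) of the shared part, and ARO7 (YPR060C), which acts after chorismate toward phenylalanine and tyrosine, lay between -0.07 and -0.02. PHA2 (YNL316C), prephenate dehydratase, was lowest, at -0.39 (95% interval -0.83 to 0.06), and TYR1 (YBR166C), prephenate dehydrogenase, was at -0.22. In the tryptophan branch, TRP2 (YER090W) was at 0.09 and TRP3 (YKL211C) at -0.16, the 2 genes of anthranilate synthase. TRP4 (YDR354W), the next enzyme, was at -0.34 (adjusted p = 0.0518), and TRP5 (YGL026C), tryptophan synthase, at -0.22 (adjusted p = 0.1).

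TRP4 read -0.07 and 0.14 at 0 min and -0.04 and -0.02 at 30 min in WT-aa, and -0.35 and -0.18 at 0 min and -0.76 and -0.58 at 30 min in Mot1-aa. It fell in Mot1-aa (-0.41, adjusted p = 0.002), as did TRP5 (-0.21, adjusted p = 0.0177), whose call was lost without Mot1-aa 0 min or 30 min of culture 1 (highest adjusted p = 0.125). Of the 3 proline genes, which start from glutamate, limma called 0 for the depletion effect at 30 min, against 21.1% of all genes. An unadjusted p under 0.05 was found for 1 of the 3. PRO2 (YOR323C) was at -0.34 (adjusted p = 0.109), PRO1 (YDR300C) at -0.17 and PRO3 (YER023W) at -0.03. The proline median of -0.17 turned to 0.14 with scaling on external control spots. PRO2 fell in Mot1-aa at 30 min (-0.46, adjusted p = 0.00388), from -0.37 and -0.12 at 0 min to -0.76 and -0.65.

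GCN4 (YEL009C) read -0.13 and 0.11 at 0 min, 0.23 and 0.31 at 10 min, 0.13 and 0.09 at 20 min, and 0.03 and 0.01 at 30 min in WT-aa. In Mot1-aa it read -0.09 and 0.29 at 0 min, 0.67 and 0.10 at 10 min, 0.33 and 0.59 at 20 min, and 0.58 and 0.52 at 30 min. The Mot1-aa values at 20 and 30 min lay above every WT-aa value, but the cultures at 0 and 10 min were far apart. The change in Mot1-aa at 30 min was 0.45 (SE 0.18, adjusted p = 0.0617) and the depletion effect 0.42 (SE 0.25, 95% interval -0.13 to 0.98, adjusted p = 0.249), and neither was called. Without the dim array the depletion effect was 0.23, and without either Mot1-aa 10 min array it was called (adjusted p = 0.0429). A list of 11 genes that control GCN4 translation held, for example, the kinase GCN2 and subunits of eIF2 and eIF2B. Limma called 0 of them for the depletion effect at 30 min, against 21.1% of all genes, and 1 had an unadjusted p under 0.05. Their median was 0.06. In Mot1-aa at 30 min 2 of the 11 fell, or 18.2%, near the 19% of all genes that fell there. They were GCN1, an activator of Gcn2 (-0.28, adjusted p = 0.0412), and SUI3, the beta subunit of eIF2 (-0.30, adjusted p = 0.0187). The array reads RNA and not Gcn4 protein.

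Several of these steps have 2 genes. In 5 of the 7 duplicate pairs, 1 gene had a larger depletion effect at 30 min than its partner by a test of the difference itself. A shift common to all genes of an array cancels in such a difference. How often 2 unrelated genes would pass the same test was not measured, and 21.1% of all single genes were called at 30 min. The count is thus not known to be particular to duplicates. SER3 exceeded SER33 by 0.86 (SE 0.13, adjusted p = 0.00185), AAT1 exceeded AAT2 by 0.87 (SE 0.14, adjusted p = 0.00201), BAT2 exceeded BAT1 by 0.78 (SE 0.15, adjusted p = 0.00518), and LEU4 exceeded LEU9 by 0.67 (SE 0.13, adjusted p = 0.0059). These 4 were called with each array left out. For the aminotransferases the larger effect was thus on the mitochondrial gene of the aspartate pair and on the cytosolic gene of the branched-chain pair.

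LYS20 exceeded LYS21 by 0.68 (SE 0.19, adjusted p = 0.0319). That call was lost without any 1 of the 8 WT-aa arrays, the Mot1-aa 0 min array of culture 1 or either Mot1-aa 30 min array (0.43 to 0.72, highest adjusted p = 0.108). The interval for ASN1 minus ASN2 was -0.03 to 0.68 and that for ARO3 minus ARO4 -0.37 to 0.69, so a difference within those bounds could not be told from 0. At 20 min, LEU4 exceeded LEU9 by 0.49 (adjusted p = 0.0458) and AAT1 exceeded AAT2 by 0.55 (adjusted p = 0.0356). At 0 min, before rapamycin, both pairs already differed between the strains, by 0.47 (adjusted p = 0.0264) and 0.51 (adjusted p = 0.0194). LYS20 minus LYS21 lay the other way at 0 min, at -0.45 (interval -0.75 to -0.15, adjusted p = 0.138, not called). Part of its 0.68 at 30 min thus comes from the 0 min values, and without the dim array it was 0.43. At 30 min LYS20 and LYS21 averaged 0.98 and 0.42 in Mot1-aa, and 0.37 and 0.04 in WT-aa. Whether the probe of 1 gene also reads its partner was not tested, since probe sequences were not used here.

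**Figure D4:**
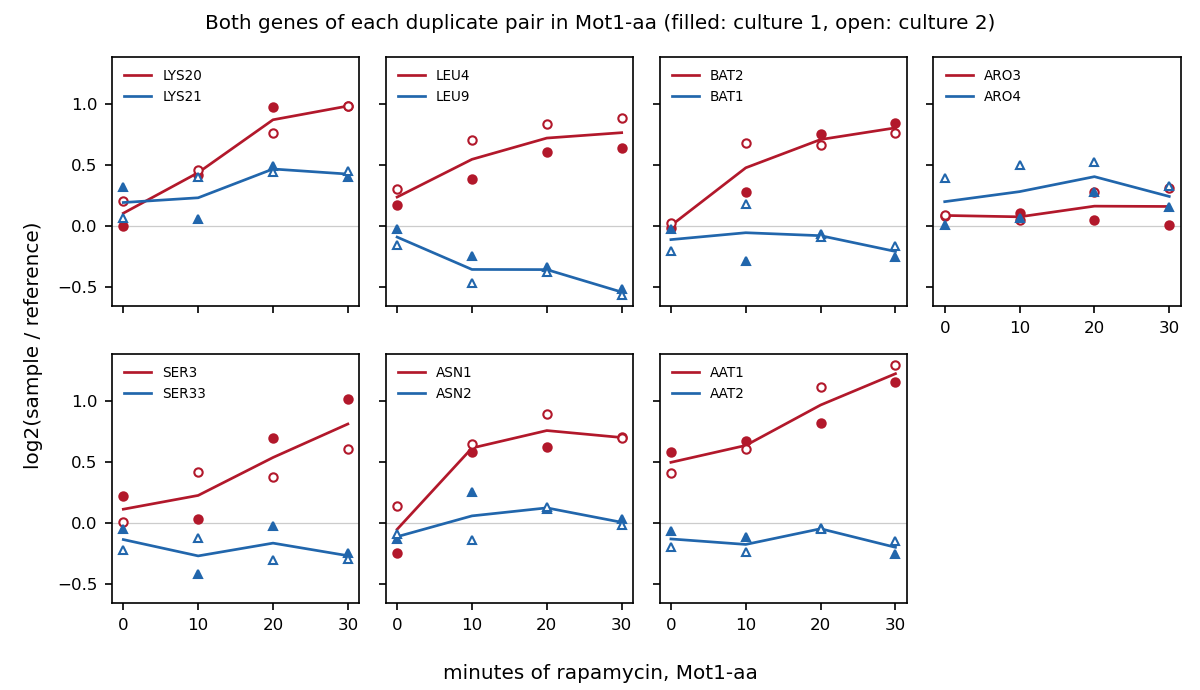
Log2(sample/reference) in Mot1-aa against minutes of rapamycin for both genes of each of the 7 duplicate pairs, red for the first named and blue for its partner, with filled points for culture 1, open points for culture 2 and lines through the mean. At 30 min the red and blue points are apart in every panel but that of ARO3 and ARO4, where they overlap.

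Beside the 52 genes, arginine synthesis, which Gcn4 also activates, had 5 of 8 measured genes with a higher depletion effect at 30 min, against 13.6% of all genes, and a median of 0.51. ARG3, ornithine carbamoyltransferase, was at 1.25 (SE 0.17, adjusted p = 0.000786), and it already differed by 0.90 at 0 min (adjusted p = 0.00244). ARG1, argininosuccinate synthetase, was at 0.96 (SE 0.12, adjusted p = 0.00055), while ARG2, acetylglutamate synthase, was at -0.31 and not called. Of 10 measured genes of other regulators of these pathways, 2 were lower (7.51% of all genes) and 0 were higher (13.6% of all genes). The 2 were BAS1 and PUT3, the activator of proline breakdown (-0.58, adjusted p = 0.0343). For the change in Mot1-aa at 30 min, 2 of the 10 rose, LEU3 (0.24) and PHO2 (0.38), and 3 fell. Of all genes, 22.9% rose and 19% fell there. By pathway, lysine had 4 of 8 genes called, branched-chain synthesis 3 of 10, serine 1 of 4 and the aspartate and threonine family 3 of 9, while histidine, the aromatic pathway and proline had 0 of 20. Among all genes 21.1% were called, and no test compared these counts.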

How the data were processed

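Per the labels, 2 independent cultures of each group were hybridised against the reference pool, the sample in Cy3 for culture 1 and in Cy5 for culture 2. The sources used here do not say whether the times of a strain share a culture. Intensity values in the deposited scanner tables are, per the file headers, the brightness of each spot and of its background in both channels. A second deposited table holds the authors' normalized log2 ratios (Cy5 over Cy3), with r of 0.797 to 0.98 against the ratios computed here, and served as an alternative. The scanner, its software and the authors' normalization are unknown here. The dye labels were checked: the reference channel was the more alike one across arrays (mean r 0.993 against 0.979 in culture 1, 0.997 against 0.985 in culture 2).

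Analysis used limma 3.58.1 in R 4.3.3: normexp with an offset of 50, loess within each array over the gene spots, the ratio turned to sample over reference, and the mean of duplicate spots (SD between them 0.037 to 0.062). Of the probes, 5326 had a gene name and 1062 had none. Matching to R64 gene names gave 5255 by symbol and 54 by synonym, with 6 kept as given. The mean was used for 11 genes with 2 probes, leaving 5315. The tables name no genome build, so no coordinates are given. lmFit and eBayes were run on all 16 arrays, with the 8 groups and a dye term, identical here to culture number (7 residual degrees of freedom, 3.54 from the prior). P-values were adjusted by Benjamini-Hochberg over all 5315 genes, and called means under 0.05. Pair differences were fitted as added rows, 5322 in all. P-values measure the spread between arrays that is left after the group and dye terms, pooled over the 8 groups. Arrays of different times were treated as independent. With 2 arrays a group, their number limits the precision. The fit was tested on simulated data with independent noise, the same spread in every group and no dye effect. That test does not show how the fit does where groups differ in spread, as they do here.

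The culture numbers mark the dye: differences between cultures correlated across groups, with median r 0.62 over 28 pairs of groups (-0.356 to 0.777), 25 of them over 0.1. All 52 genes are accounted for. Full values are given for those called at 0 min, in WT-aa or for the depletion effect at 20 or 30 min, for each pathway's extremes, the duplicate pairs and GCN4. The genes and the gene lists were chosen with earlier results of these data known. Alternatives were other background and normalization settings, no dye term, array weights, the authors' ratios, a filter on dim probes (113 genes removed, 0 of the 52), culture as a random block, and each array left out.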

Additional observations from a re-analysis of the deposited data

Results flagged for a closer look

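The change from 0 min differed between Mot1-aa and WT-aa, by the interaction test in limma, for 7 of the 52 genes at 20 min and 11 at 30 min, against 8.09% and 21.1% of all genes. At 20 min the difference on the log2 scale was 0.75 for LYS20, 0.83 for LYS9, 0.77 for LYS1, 0.87 for LEU1, 0.58 for BAT2, 0.78 for SER1 and 0.56 for AAT1, all higher in Mot1-aa. At 30 min it was 0.80 for LYS20, 0.84 for LYS12, 0.99 for LYS9, 0.98 for LYS1, 0.41 for LEU4, 1.00 for LEU1, 0.64 for BAT2, 0.96 for SER1, 0.83 for AAT1 and 0.47 for ASN1, and -0.65 for THR1. The signal of the Mot1-aa 0 min array of culture 1, which is in the baseline of all of them, was 12.0 times its background against 22.2 or more elsewhere. Its part in these values was tested only by leaving it out. At 20 min LEU1 (0.74), BAT2 (0.58) and SER1 (0.62) then lost their call. At 30 min LEU4 (0.46), BAT2 (0.64), ASN1 (0.34) and THR1 (-0.51) lost theirs, and THR4 (-0.53), not among those listed, gained one.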

How the results depend on the processing

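Over the alternatives run, the values of named genes stayed on their side of the threshold in 2130 cases, in 45 of them with the other sign and uncalled, lost a call in 227, gained one in 36 and, where called, reversed in 5. The 5 reversals of called values all came with scaling on external control spots, where HIS6 in Mot1-aa was 0.0554 at 20 min, and at 30 min ILV3 was 0.11, TRP4 0.0002, TRP5 0.21 and THR4 0.0397. That scaling left 0 members called for the strain difference, WT-aa and Mot1-aa at 10 min and the depletion effects at 20 and 30 min, and 11 for Mot1-aa at 30 min. Without the dye term, which is the replicate block of this design, 0 were called at 0 min and in WT-aa at 10 min, 1 in Mot1-aa at 10 min and 3 for the depletion effect at 20 min. The strain difference gave 1 gene without background correction, with median centring or with the dim filter, and 4 with the authors' log2 ratios. Median centring gave 0 in WT-aa and 1 in Mot1-aa at 10 min. Array weights, lowest at 0.148 for the Mot1-aa 10 min arrays, gave 0 in Mot1-aa at 10 min, 25 at 20 min and 18 for the depletion effect at 30 min. Without both Mot1-aa 10 min arrays, an alternative chosen after seeing the data, 7 were called at 0 min, 29 in Mot1-aa at 20 min, and 13 and 23 for the depletion effect at 20 and 30 min. Leaving out each array in turn gave 0 to 7 for the strain difference, 0 to 1 for WT-aa at 10 min, 1 to 12, 7 to 29 and 17 to 34 for Mot1-aa at 10, 20 and 30 min, and 1 to 13 and 7 to 23 for the depletion effect at 20 and 30 min. WT-aa at 20 and 30 min and the depletion effect at 10 min gave 0 throughout. The share of all genes called moved between alternatives as well. For the strain difference it was 2.69% in the fit used, 0.0753% with external scaling and 8% without both Mot1-aa 10 min arrays. The cause of these changes was not tested. Where an array was left out, its lone partner was assumed to vary like the other groups. All of the 52 genes were above background on every array. Whether the strength of their signal limited these values was not tested.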
